A study of Mus musculus with 21 samples.

Results

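The genes described here are the D-type cyclins Ccnd1, Ccnd2 and Ccnd3, the kinases Cdk4 and Cdk6, the kinase inhibitors Cdkn2a, Cdkn2b, Cdkn2c and Cdkn1b, and the substrate Rb1. They were taken by symbol from the deposited table of normalized counts, where all 10 were found among 34478 genes. D-type cyclins rise in G1 phase when growth factor signals pass through MEK and ERK, and they activate the kinases CDK4 and CDK6, which phosphorylate the retinoblastoma protein RB and release E2F transcription factors. Proteins of the INK4 family bind CDK4 and CDK6 and block this step, while p27, the product of Cdkn1b, binds cyclin-CDK complexes. Loss of the CDKN2A locus is frequent in human pancreatic ductal adenocarcinoma.

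RNA from 6 murine pancreatic cancer cell lines (#3, #4, #6, #7, #9 and #10) was measured in 4 states, and because each state has a single sample of a line, the 6 lines serve as replicates. All lines carry Trp53loxP/loxP and Ptf1awt/Cre: Cre driven from Ptf1a in the pancreas deletes Trp53, in the parental cells as in the others. Parental cells had never been treated, and resistant cells grew in trametinib, a MEK inhibitor, at 100 times the concentration that inhibits the growth of their own line by 50%. P12 cells (6 lines) and P5 cells (lines #3, #7 and #9) are resistant cells passaged without the drug, although the descriptions of P5 in lines #7 and #9 give 12 passages.

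The unit is a normalized count, a read estimate per gene scaled between samples and not divided by gene length. Every value of the 10 genes lay between 87.4 and 28631, far above the 2.31 to 4.07 normalized counts that 3 reads were estimated to make in a sample. All 10 were among the 19300 genes tested, those that reached 10 normalized counts in 3 or more samples. Since RNA was taken from whole cultures, fewer cells that express a gene and less of its RNA per cell cannot be told apart.

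A gene was called in a comparison when the Benjamini-Hochberg adjusted p of limma, over all 19300 genes, was below 0.01 and the log2 fold change was above 1 or below -1, and SE stands for the standard error of a log2 fold change. In resistant against parental cells, 2 of the 10 genes were called, beside 5.30% of all tested genes (1023 of 19300). Cdkn2c was the 1 called higher, beside 2.57% of all tested genes, and Ccnd1 the 1 called lower, beside 2.73%. At an adjusted p below 0.05 with no minimum fold the count was 3 of 10, beside 15.6% of all tested genes, and at an unadjusted p below 0.05 it was 6 of 10, beside 29.2%. The median log2 fold change of the 10 genes was -0.25 and that of all tested genes -0.0049. Values of resistant and parental cells did not overlap for 2 of the 10, again Ccnd1 and Cdkn2c, beside 5.99% of all tested genes. With counts this small these shares describe 10 single genes, which are taken in turn below.

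**Figure D1:**
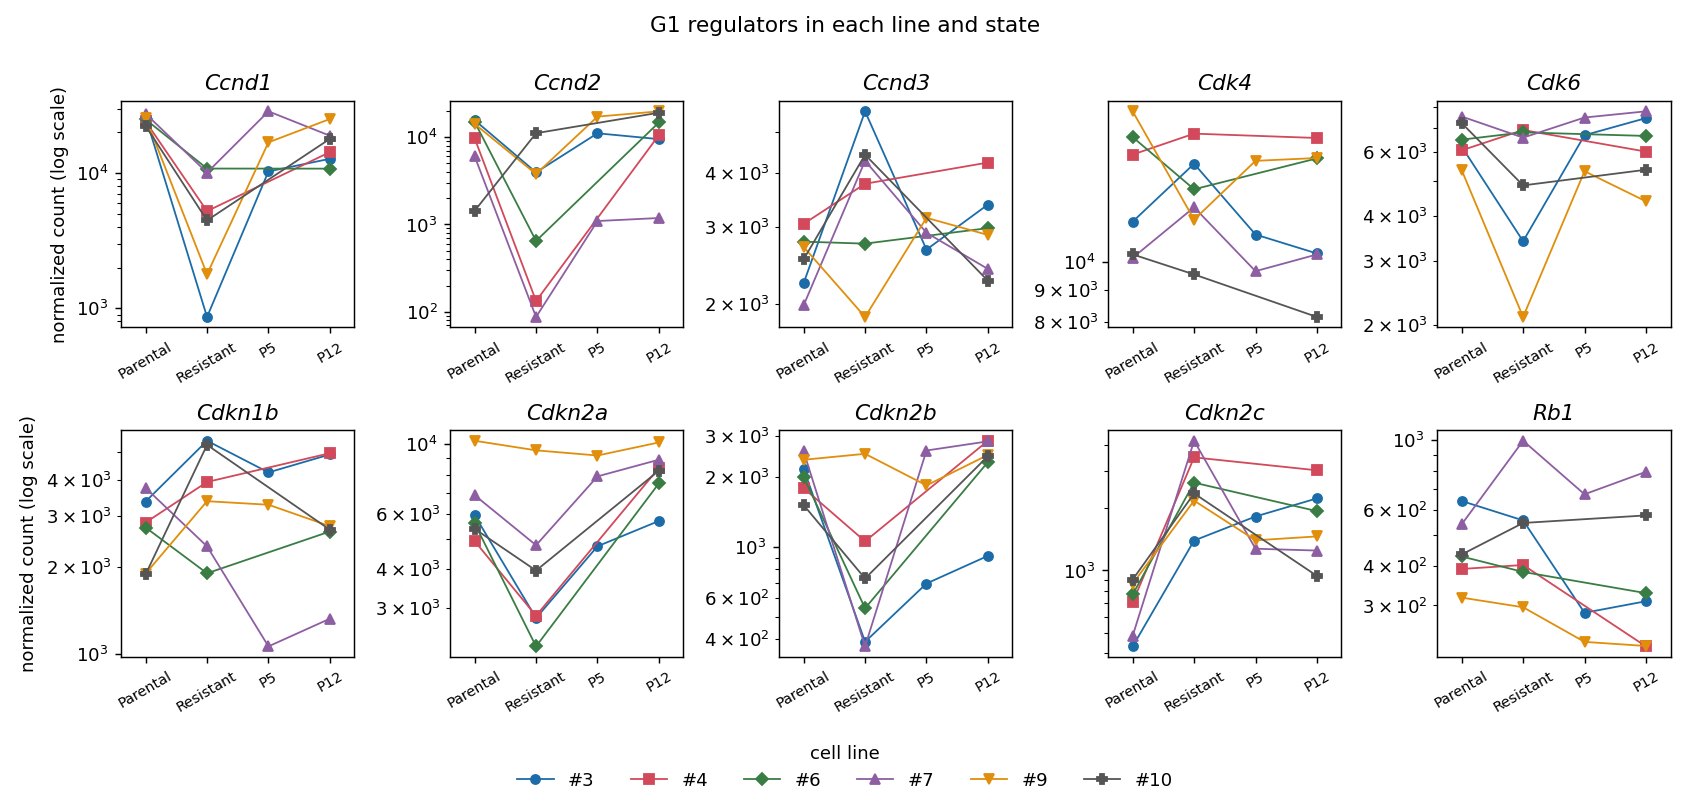
Normalized counts of the 10 genes in each cell line by state, on a log scale. The median of Ccnd1 was 25316 in parental and 4852 in resistant cells, and that of Cdkn2c 735 and 2496.

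Ccnd1 encodes cyclin D1, a target of ERK signalling in many cell types. Its lowest, median and highest normalized counts were 22345, 25316 and 27460.4 in parental cells and 863, 4852 and 10806 in resistant cells. The 6 parental lines lay close together, the 6 resistant lines were spread widely with line #3 lowest and line #6 highest, and the groups did not overlap. Ccnd1 fell in resistant cells, by a fitted log2 fold change of -2.65 (SE 0.46, limma adjusted p = 9.47e-04). Within lines the log2 difference ran from -4.91 in line #3 (25925 to 863) to -1.21 in line #6 (24938 to 10806), so all 6 lines moved down but to very different extents.

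After the drug was withdrawn, Ccnd1 in P5 cells stood at 10288, 28631 and 16885 in lines #3, #7 and #9, and in P12 cells at 10789, 16105 and 25128 (lowest, median and highest). All 3 P5 values lay above the resistant value of the same line, and in line #7 the P5 value was also above the parental 27460.4. P12 was above resistant in 5 of 6 lines. Line #6 was the exception, with 10806 in resistant and 10789 in P12 cells, and since its resistant value was the highest of the 6, the P12 and resistant groups overlapped. P12 against resistant cells gave a log2 fold change of 2.01 (SE 0.46, limma adjusted p = 0.0131), which did not reach the threshold. With the cell line as a replicate block, so that each line is compared with itself, the limma adjusted p was 0.00642 and Ccnd1 was called. P12 values were below parental values in 6 of 6 lines, yet the groups overlapped and the log2 fold change of -0.65 had a limma adjusted p of 0.524. P5 against resistant cells gave 2.10 (limma adjusted p = 0.0593).

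Ccnd2, which encodes cyclin D2, differed more between lines than Ccnd1 did. Its lowest, median and highest normalized counts were 1431, 11916 and 15615 in parental cells and 87.4, 2213 and 11081 in resistant cells. Resistant lines #4, #6 and #7 were lowest (133, 648 and 87.4), lines #3 and #9 held 3946 and 3778, and line #10 went the other way. In line #10 the parental value of 1431 was the lowest of its state and the resistant value of 11081 the highest, a log2 difference of 2.95, so the groups overlapped. The log2 fold change of Ccnd2, -2.95, was the largest in size of the 10 genes in resistant against parental cells. Its standard error of 1.10 was also the largest. The limma adjusted p was 0.0738, or 0.0217 with the cell line as a replicate block, a call in neither fit. Leaving out a line moved the log2 fold change between -4.14 (without line #10) and -2.31 (without line #4), with limma adjusted p from 0.0247 to 0.249.

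In P12 cells Ccnd2 had a lowest, median and highest normalized count of 1185, 12607 and 19717, and in P5 cells 11052, 1095 and 17151 in lines #3, #7 and #9. P12 was above resistant in 6 of 6 lines, by a log2 difference of 0.78 in line #10 up to 6.29 in line #4, and line #7 stayed low at both P5 and P12. The groups overlapped, and the log2 fold change of 3.16 had a limma adjusted p of 0.0975. With the cell line as a replicate block the limma adjusted p was 0.0273, not a call. In line #10 the P12 value of 19006 was the second highest of its state, against the lowest parental value, a log2 difference of 3.73.

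Ccnd3 encodes cyclin D3. Its lowest, median and highest normalized counts were 1982, 2617 and 3058 in parental and 1862, 4033 and 5569.5 in resistant cells. Resistant lines #3, #10, #7 and #4 lay above every parental value, lines #6 and #9 lay within or below the parental range, and the groups overlapped. Ccnd3 did not pass the test, at a log2 fold change of 0.50 (limma adjusted p = 0.129). P12 cells ranged from 2258 to 4239 and P5 cells from 2666 to 3158, inside the span of parental and resistant cells.

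To compare the 3 cyclins with each other, each normalized count was divided by the length of a principal transcript (3740 bases for Ccnd1, 6330 for Ccnd2 and 2064 for Ccnd3) and given as a share of their sum. On this scale Ccnd1 made up 64.3, 67.1 and 80.4% (lowest, median and highest) of D-type cyclin RNA in parental cells and 6.50, 33.6 and 66.8% in resistant cells. Ccnd3 made up 10.3, 12.8 and 16.5% in parental and 30.8, 44.5 and 76.0% in resistant cells, so its lowest share in resistant cells was above its highest share in parental cells. Ccnd1 was the most abundant of the 3 in 6 of 6 parental, 3 of 3 P5 and 6 of 6 P12 samples, but in 2 of 6 resistant samples (lines #6 and #7). Ccnd3 led in the other 4 resistant samples, with 76.0% in line #3, 56.4% in line #4, 45.6% in line #9 and 42.1% in line #10. This ranking rests on the lengths: by normalized counts without a length, Ccnd3 led in 1 resistant sample (line #3), Ccnd1 in 3 (lines #4, #6 and #7) and Ccnd2 in 2 (lines #9 and #10), and Ccnd2 also led in 2 of 3 P5 and 2 of 6 P12 samples.

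**Figure D2:**
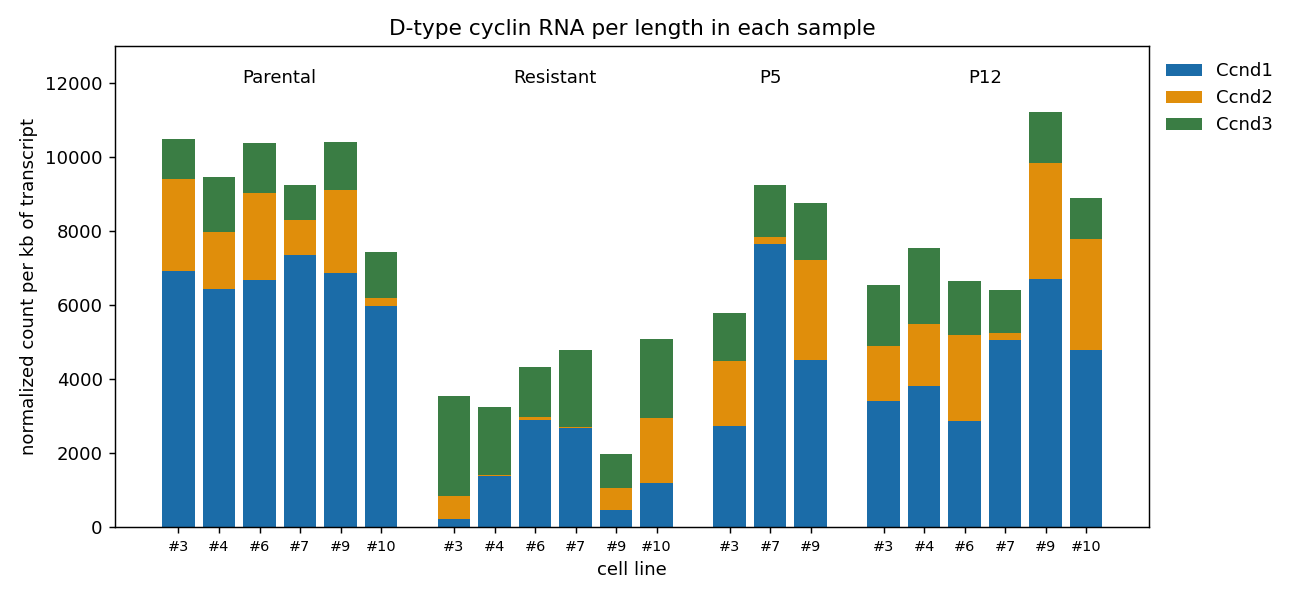
Normalized counts per kilobase of Ccnd1, Ccnd2 and Ccnd3, stacked for each sample. The summed value had a median of 9912 in parental, 3939 in resistant and 7096 in P12 cells.

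The summed level of the 3 cyclins, in normalized counts per kilobase, was 7427, 9912 and 10479 (lowest, median and highest) in parental cells and 1977, 3939 and 5087 in resistant cells. The highest resistant sum lay below the lowest parental sum, so the larger share of Ccnd3 was a share of a smaller total. The sums were 5788, 9241 and 8754 in P5 cells of lines #3, #7 and #9, and 6406, 7096 and 11229.7 in P12 cells. The lowest P12 sum was above the highest resistant sum, and P12 overlapped parental cells. In P12 cells the share of Ccnd1 was 43.3, 53.0 and 78.9%, that of Ccnd2 2.92, 25.3 and 34.9% and that of Ccnd3 12.3, 20.0 and 27.2%, so the median order per length was Ccnd1, Ccnd2, Ccnd3, as in parental cells.

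Cdk4 and Cdk6, the kinases that D-type cyclins activate, showed no call in any of the 5 comparisons. Cdk4 ranged from 8158 to 17373 normalized counts over the 21 samples, with medians of 13201, 12626, 11046 and 12458 in parental, resistant, P5 and P12 cells. Its log2 fold change in resistant against parental cells was -0.045 (SE 0.19, limma adjusted p = 0.903), with 3 lines higher and 3 lower. Cdk6 ranged from 2104 to 7770 normalized counts, with a log2 fold change of -0.45 (limma adjusted p = 0.222) and 4 of 6 lines lower. Per length of transcript (2053 and 11525 bases), Cdk4 made up 87.9 to 96.9% of the RNA of the 2 kinases, so Cdk4 was the more abundant in all 21 samples.

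Of the 3 INK4 genes among the members, Cdkn2c, which encodes p18, was the member that rose. Its lowest, median and highest normalized counts were 431, 735 and 904 in parental and 1393, 2496 and 4207 in resistant cells. The lowest resistant value, in line #3, was above the highest parental value, in line #10, so the groups did not overlap. Its log2 fold change was 1.93 (SE 0.29, limma adjusted p = 2.75e-04), and the 6 lines were higher by log2 differences from 1.33 in line #9 to 3.11 in line #7.

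Cdkn2c in P5 cells stood at 1818, 1272 and 1396 in lines #3, #7 and #9, and in P12 cells at 942, 1694 and 3032 (lowest, median and highest). Every P5 and P12 value lay above every parental value, the nearest being P12 of line #10 at 942 against its own parental 904. P12 against parental cells gave a log2 fold change of 1.33 (SE 0.29, limma adjusted p = 0.0430), short of the threshold of 0.01. P12 values were below resistant values in 5 of 6 lines, with line #3 higher by 0.67 on the log2 scale, and the groups overlapped, with a log2 fold change of -0.60 (limma adjusted p = 0.254). P5 against parental cells gave 1.15 (limma adjusted p = 0.288), and P5 against resistant cells -0.79 (limma adjusted p = 0.292). The median order of the 4 states was parental, P5, P12, resistant, in which P5 and P12 overlapped each other and resistant cells.

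Cdkn2b, which encodes p15, had lowest, median and highest normalized counts of 1513, 2083 and 2577 in parental and 373, 637 and 2518 in resistant cells. Resistant lines #3, #4, #6, #7 and #10 lay below every parental value, and line #9, at 2518 against its parental 2374, made the groups overlap. For Cdkn2b the log2 fold change was -1.48 (SE 0.41, limma adjusted p = 0.0212), which did not reach the threshold. With the cell line as a replicate block the limma adjusted p was 0.00717 and Cdkn2b was called lower, which made 3 of 10 genes, beside 10.5% of all tested genes with the block.

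P12 cells held 915, 2475 and 2867 normalized counts of Cdkn2b (lowest, median and highest), and P5 cells 695, 2602 and 1840.3 in lines #3, #7 and #9. Line #3 was lowest in both states and line #9 stayed between 1840.3 and 2518 over the 4 states, while P12 values of lines #4, #6, #7 and #10 lay between 2319.7 and 2867. P12 was above resistant in 5 of 6 lines and the groups overlapped. P12 against resistant cells gave 1.57 (limma adjusted p = 0.0271), and with the cell line as a replicate block the adjusted p was 0.00921, a call. Against parental cells P12 was higher in 5 of 6 lines, line #3 being the exception, and the log2 fold change was 0.094 (limma adjusted p = 0.934).

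Cdkn2a gives rise to p16 and, from another first exon, to p19ARF, and its value here joins the transcripts of the 2 proteins. Its lowest, median and highest normalized counts were 4908, 5759 and 10248 in parental and 2267, 3396 and 9552 in resistant cells. Every line held the RNA, line #9 was highest in both states, resistant was below parental in 6 of 6 lines, and the groups overlapped. Resistant against parental cells gave a log2 fold change of -0.71, with a limma adjusted p of 0.0968, or 0.00795 with the cell line as a replicate block, where the size of the fold change kept it from a call. P12 cells held 5689, 8312 and 10122 and P5 cells 4725, 7889.7 and 9196 in lines #3, #7 and #9. P12 was above resistant in 6 of 6 lines, although only by 0.084 on the log2 scale in line #9, and the groups overlapped. The log2 fold change was 1.06 (SE 0.28, limma adjusted p = 0.0290), and with the cell line as a replicate block the adjusted p was 0.00124, a call. Against parental cells, P12 was higher in 4 of 6 lines for Cdkn2a, with a log2 fold change of 0.35 (limma adjusted p = 0.575).

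In P12 against resistant cells, then, 0 of the 10 genes were called by limma, beside 2.13% of all tested genes (412), while 4 of 10 had an unadjusted p below 0.05, beside 19.8%. At an adjusted p below 0.05 with no minimum fold the count was 3 of 10 (Ccnd1, Cdkn2a and Cdkn2b), beside 6.22% of all tested genes. The same 3 were called higher with the cell line as a block, beside 2.52% of all tested genes called higher and 4.52% (872) called in either direction. Groups of P12 and resistant cells did not overlap for 0 of 10, beside 2.45%. The median log2 fold change was 0.15 over the 10 genes and 0.02 over all tested genes.

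**Figure D3:**
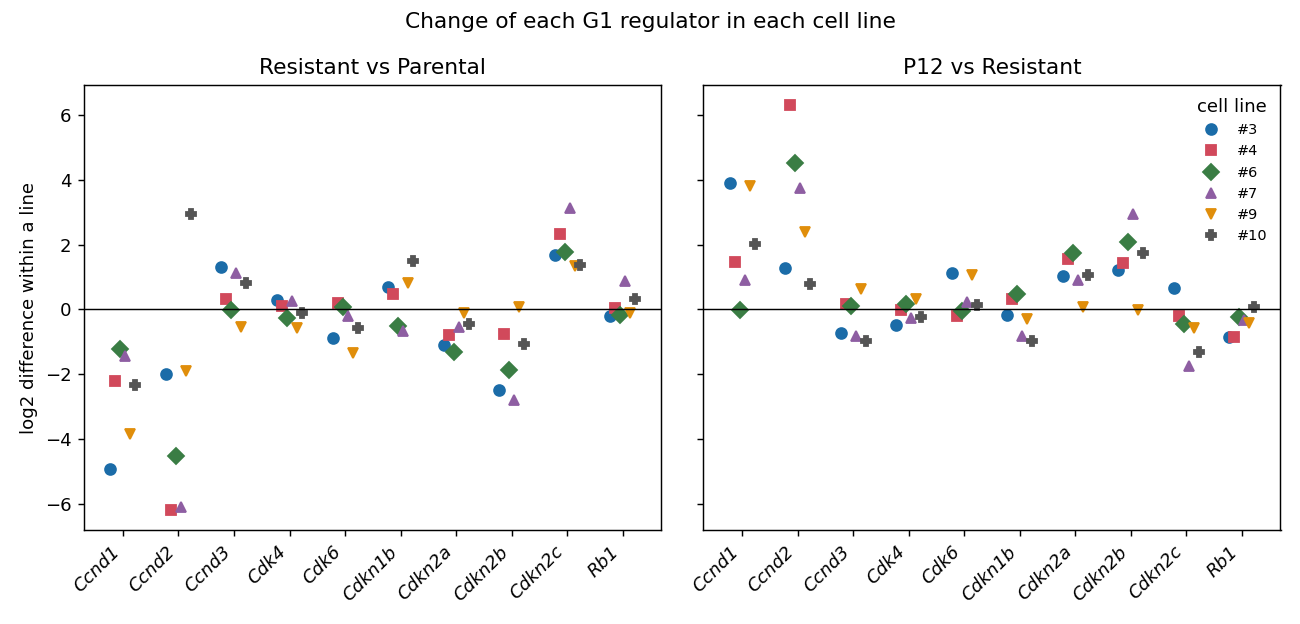
Log2 differences within each cell line, resistant minus parental and P12 minus resistant. Ccnd2 in line #10 stood at 2.95 and 0.78.

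In P12 against parental cells 0 of the 10 genes were called by limma, beside 0.114% of all tested genes (22), and 1 of 10 had an unadjusted p below 0.05, beside 15.3%. That gene was Cdkn2c, also the 1 of 10 with an adjusted p below 0.05, beside 0.658% of all tested genes, and the 1 of 10 whose groups did not overlap, beside 1.52%. In P5 against resistant cells, with 3 lines against 6, limma called 0 of 10, beside 0.378% of all tested genes (73), and 3 of 10 had an unadjusted p below 0.05, beside 15.4%. In P5 against parental cells limma called 0 of 10, beside 0.0259% (5 genes), with 1 of 10 at an unadjusted p below 0.05, beside 10.4%, and 1 of 10 (Cdkn2c) without overlap, beside 5.39%. Median log2 fold changes of the 10 genes were 0.12, 0.16 and -0.14 in these 3 comparisons, and 0.03, 0.03 and 0.02 over all tested genes. The 5 comparisons share samples, so their values stand side by side and are not independent of each other.

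Cdkn1b encodes p27 and ranged from 1065 to 5455 normalized counts, with medians of 2794, 3654, 3281 and 2729.5 in parental, resistant, P5 and P12 cells. The lowest values were those of line #7 after the drug was withdrawn, 1065 in P5 and 1327 in P12 cells. Its log2 fold change in resistant against parental cells was 0.38 (limma adjusted p = 0.535), with 4 lines higher and 2 lower. Rb1, which encodes RB, ranged from 223 to 996, with medians of 432, 475, 284 and 319, and its log2 fold change was 0.13 (limma adjusted p = 0.847). Every sample held RNA of all 10 genes, so no line had lost the RNA of Rb1, Cdkn1b or an INK4 gene.

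Per kilobase of transcript, the median levels in parental cells came in the order Ccnd1 (6769), Cdkn2a (6434), Cdk4 (6430.3), Ccnd2 (1883), Cdkn2b (1499), Ccnd3 (1268), Cdkn1b (614), Cdk6 (551), Cdkn2c (297) and Rb1 (92.8). The first 3 overlapped each other, as did the next 3, while Cdkn2c and then Rb1 lay below the others, except that Ccnd2 in line #10 came within the range of Cdkn2c. In resistant cells the order was Cdk4 (6150.3), Cdkn2a (3794), Ccnd3 (1954), Ccnd1 (1297), Cdkn2c (1010.1), Cdkn1b (803), Cdk6 (496), Cdkn2b (459), Ccnd2 (349.6) and Rb1 (102). By its median Cdk4 thus stood first and Rb1 last, and neighbours in this order overlapped each other.

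The variation of each gene on the log2 scale was split between state and cell line over the 18 parental, resistant and P12 samples. State took the largest share for Cdkn2c (72.8% by state and 7.48% by line) and Ccnd1 (67.1% and 9.84%). Cdkn2b (54.6% and 19.4%), Cdkn2a (47.1% and 38.5%) and Ccnd2 (38.1% and 27.6%) followed, with 34.3% of Ccnd2 going to neither. Cell line took the largest share for Cdk4 (74.2%), Rb1 (69.3%) and Cdk6 (48.3%). Cdk4 was lowest in line #7 or #10 in each state with 6 lines, and Rb1 was lowest in line #9 in parental and resistant cells and within 1 normalized count of the lowest there in P12 cells. For Ccnd3 and Cdkn1b, 53.4% and 51.9% went to neither state nor line. Over all tested genes the medians were 19.8% by state and 35.8% by line.

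Over the 21 samples, which share lines and states, the pair of members with the most similar pattern was Cdkn2a and Cdkn2b (Pearson r = 0.809, log2 scale). Ccnd3 and Cdkn2b had the most opposed pattern (r = -0.62 over the same 21 samples), and Ccnd1 was most like Cdk6 (r = 0.671). Among all tested genes, the 3 most like Ccnd1 were Gsto1 (r = 0.933), Spp1 (r = 0.921) and Cd14 (r = 0.913). For Ccnd2 they were B4galnt4 (r = 0.831), Gjc1 (r = 0.829) and Slc4a7 (r = 0.801), and for Ccnd3 Hs3st3a1 (r = 0.802), Eqtn (r = 0.791) and Heatr5b (r = 0.778). These values describe likeness over 21 samples and nothing more, as do those that follow. Cdk4 was most like Naca (r = 0.851), Wbp4 (r = 0.819) and Gm43444 (r = 0.814), and Cdk6 most like Ubald2 (r = 0.900), Pdk1 (r = 0.866) and Prkaa1 (r = 0.858). Cdkn2a was most like Nav3 (r = 0.908), 1190007I07Rik (r = 0.907) and Ctps2 (r = 0.896), and its neighbour Cdkn2b most like Gys1 (r = 0.899), Cog7 (r = 0.893) and Cx3cl1 (r = 0.882). Nearest to Cdkn2c, the gene that rose, were Daam2 (r = 0.888), Sun2 (r = 0.879) and Tspyl4 (r = 0.871). Cdkn1b was most like Krba1 (r = 0.805), Cyp4v3 (r = 0.776) and Slc19a3 (r = 0.771), and Rb1 most like Me1 (r = 0.904), Rfk (r = 0.901) and Rnf128 (r = 0.891).

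Cdkn2a (chr4:89274471-89294653) and Cdkn2b (chr4:89306299-89311039) lie 11.6 kb apart on the minus strand of the GRCm38 mouse genome, and Cdkn2c (chr4:109660876-109667189) lies on the same chromosome. Mtap, the nearest protein-coding gene on the other side of Cdkn2a at 93.4 kb, had a log2 fold change of -0.84 in resistant against parental cells (limma adjusted p = 0.0618) and 0.84 in P12 against resistant cells (limma adjusted p = 0.109). Neither passed, and the values of Cdkn2a and Cdkn2b stand beside them at -0.71 and -1.48, then 1.06 and 1.57. Ccnd1 (chr7:144929931-144939925, minus strand), Ccnd2, Ccnd3, Cdk4, Cdk6 and Rb1 each share exon bases with a gene on the opposite strand. The library kit keeps the strand of the RNA, but whether the counting used it is not given in the sources used here, so for these 6 genes the assignment of reads in the shared bases is uncertain.

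Promoter sequences, from 250 bases before to 50 bases after a start, were available for 7 of the 10 genes as 10 promoters in the RefSeq table for GRCm38.p6, and were missing for Ccnd1, Ccnd2 and Rb1. The promoters of the INK4 genes are shown in their bases outside exons, because they hold the member that rose in resistant cells beside 2 members with lower values there, and they are written 5' to 3' along the gene, all on the minus strand. Sites searched on either strand are in capitals where they occur: a cyclic AMP response element (TGACGTCA), an AP-1 site (TGACTCA), an ETS-type site (CCGGAAGT), an E-box (CACGTG) and E2F-type sites (TTTCCCGC, TTTCGCGC, TTTGGCGC, TTTGCCGC). The upstream promoter of Cdkn2a, chr4:89294654-89294869, holds TTTCCCGC 99 bases before the start. The inner promoter of Cdkn2a, chr4:89282193-89282442, holds none of these sites. The promoter of Cdkn2b, chr4:89311040-89311282, holds TGACGTCA 46 bases before the start. The first promoter of Cdkn2c, chr4:109666707-109667006, has 0 bases outside exons and is not shown. The second promoter of Cdkn2c, chr4:109665373-109665609, holds none in the bases shown.
Cdkn2a upstream: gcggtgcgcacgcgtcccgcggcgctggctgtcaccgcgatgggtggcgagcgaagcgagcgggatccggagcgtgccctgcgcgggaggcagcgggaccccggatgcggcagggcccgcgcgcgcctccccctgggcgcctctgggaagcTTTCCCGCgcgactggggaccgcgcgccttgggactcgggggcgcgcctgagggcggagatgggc
Cdkn2a inner: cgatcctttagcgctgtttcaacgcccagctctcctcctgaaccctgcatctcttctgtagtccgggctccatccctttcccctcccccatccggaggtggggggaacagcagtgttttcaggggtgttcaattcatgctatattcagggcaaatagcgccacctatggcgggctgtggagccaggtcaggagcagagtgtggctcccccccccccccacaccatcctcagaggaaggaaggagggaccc
Cdkn2b: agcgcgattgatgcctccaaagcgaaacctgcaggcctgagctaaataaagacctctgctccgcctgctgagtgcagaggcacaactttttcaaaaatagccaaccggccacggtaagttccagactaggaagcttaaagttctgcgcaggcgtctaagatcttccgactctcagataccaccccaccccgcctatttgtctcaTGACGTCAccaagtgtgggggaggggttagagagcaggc
Cdkn2c second: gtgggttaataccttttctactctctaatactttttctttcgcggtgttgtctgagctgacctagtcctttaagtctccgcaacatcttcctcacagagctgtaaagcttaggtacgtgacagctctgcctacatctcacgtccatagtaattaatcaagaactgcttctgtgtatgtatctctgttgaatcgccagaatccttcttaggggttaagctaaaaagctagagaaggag

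The cyclic AMP response element was found in 1 of the 10 promoters (Cdkn2b), beside 1.79% of 32851 mouse promoters. An E2F-type site was found in 1 of 10 (Cdkn2a, upstream), beside 2.26%. The promoters of Cdkn2a were not assigned to p16 or p19ARF here. The E-box was found in 3 of 10, beside 7.15%: Cdk4 with 4 of them, Cdk6, and the second promoter of Cdkn2c, there after the start. An AP-1 site was found in 0 of 10, beside 5.20%, and the ETS-type site in 0 of 10, beside 3.89%. A match of letters describes the sequence and does not show that a protein binds there.

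Lists of genes that act with the members were counted in resistant against parental cells. Of the ERK output genes, RNA readouts of ERK signalling, 9 of 10 were called lower, beside 2.73% of all tested genes. Their median log2 fold change was -6.59, beside -0.0049 over all tested genes. Etv4 stood at -10.46, Spry4 at -8.27, Etv5 at -8.09 and Dusp4 at -7.80. In P12 against resistant cells 9 of 10 were called higher, with a median of 7.19, beside 2.13% of all tested genes called in either direction, and in P5 against resistant cells 8 of 10, with a median of 7.26, beside 0.378%, while limma called 0 of 10 in P12 or P5 against parental cells, with 3 and 2 at an unadjusted p below 0.05, beside 15.3% and 10.4% of all tested genes. The medians of Ccnd1 were lower in resistant cells and higher in P5 and P12 cells as well. In line #6, however, Ccnd1 did not rise at P12 (log2 difference -0.0023), and P12 was below parental in 6 of 6 lines. Of the ERK output genes, Myc was higher in P12 than in resistant cells in 5 of 6 lines, and the others in 6 of 6. The part of ERK signalling in the values of Ccnd1 was not tested. Of 5 genes of D-type cyclin turnover 0 were called by limma and 1 had an unadjusted p below 0.05, beside 29.2% of all tested genes (median 0.43), among them Cryab at 4.86 (limma adjusted p = 0.0126) and Gsk3b at 0.43 (limma adjusted p = 0.173). With the cell line as a replicate block Cryab, which was higher in 6 of 6 lines, was called (limma adjusted p = 2.16e-04), 1 of 5 beside 4.85% of all tested genes called higher.

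Of 12 tested regulators of the Cdkn2a and Cdkn2b locus (13 listed, Tbx3 below the filter), 1 was called higher, Ring1 at 1.10 (limma adjusted p = 0.00724), and 1 lower, Rnf2 at -1.01 (limma adjusted p = 0.00123), with a median of -0.06. Of all tested genes 2.57% were called higher and 2.73% lower, and 4 of these 12 had an unadjusted p below 0.05, beside 29.2%. Ring1 and Rnf2 encode paralogous subunits of Polycomb repressive complex 1. Of 6 regulators of p27, 0 were called by limma and 2 had an unadjusted p below 0.05, beside the same 29.2% (median 0.06), with Cks1b at -0.82 (limma adjusted p = 0.0310) and Foxo1 at -1.07 (limma adjusted p = 0.0879), beside 0.38 for Cdkn1b. Downstream of RB, 1 of 21 E2F target genes was called lower, Tk1 at -1.20 (limma adjusted p = 0.00284), 0 were called higher, and the median was -0.30. That count stands beside 2.73% of all tested genes called lower, and 3 of the 21 had an unadjusted p below 0.05, beside 29.2%. Of 22 other G1/S genes 0 were called by limma and 6 had an unadjusted p below 0.05, beside 29.2% of all tested genes (median -0.20), with E2f4 at -0.78 (limma adjusted p = 0.00586) and E2f6 at -1.50 (limma adjusted p = 0.0186). With the cell line as a replicate block 1 of the 22 was called lower, E2f6 (limma adjusted p = 0.00132), beside 5.60% of all tested genes, so this count is near the background. Cdkn2d, the remaining INK4 gene, is among the 22 and was named after its values were seen: it was higher in 5 of 6 resistant lines, with a log2 fold change of 0.87 (limma adjusted p = 0.0905). In P12 against resistant cells 0 of the 66 tested genes of these 5 lists were called by limma, and 9 had an unadjusted p below 0.05, beside 19.8% of all tested genes. With the block 1 of the 66 was called lower, Cryab at -3.79 (limma adjusted p = 0.00253), beside 2.00% of all tested genes.

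Markers of cell type were read to describe the cultures. The sum of 6 epithelial markers was 15942, 246719 and 282743 (lowest, median and highest) in parental cells. It was 1014, 62431 and 209982 in resistant cells and 489, 50681 and 205782 in P12 cells, with line #9 lowest in each state. By median, Krt8 led in parental, Krt19 in resistant and Krt18 in P12 cells. In P5 cells the sum was 20190.4, 235127 and 379.5 in lines #3, #7 and #9. In line #7 it stood near the parental 266115, although Cdh1 (53229 to 17116) and Krt7 were lower there. In line #9 it was far below the parental 15942. Epcam was at 0 in every parental, resistant and P12 sample, and Cdh1 had a log2 fold change of -7.11 (limma adjusted p = 0.0173). The sum of 7 fibroblast markers was 96.3, 455 and 10387 in parental cells. It was 1896, 88828 and 503969 in resistant and 227, 26138 and 124046 in P12 cells. Of the 6 tested, 1 was called higher in resistant cells, Dcn at 11.00 (limma adjusted p = 0.00116), beside 2.57% of all tested genes. Of the 6, 5 had a log2 fold change above 0 and 1 below 0, and the lowest resistant value of Dcn, 268, was that of line #9. Of the 5 tested epithelial markers limma called 0 in resistant against parental cells, beside 5.30% of all tested genes. An unadjusted p below 0.05 was found for 1 of the 5, beside 29.2%. With the cell line as a replicate block 3 of the 5 were called lower, beside 5.60% of all tested genes, and 2 of 6 fibroblast markers higher, beside 4.85%. In resistant cells the fibroblast sum was above the epithelial sum in lines #3, #4, #6 and #9, and below it in lines #7 and #10. The sums do not tell which cells held these transcripts. Line #9 had the lowest epithelial and highest fibroblast sum in parental and resistant cells. It is also the line whose Cdkn2b was not lower in resistant cells. Whether these marker levels had a part in the values of the 10 genes was not tested. Immune markers, led by Cd68, summed to 131 to 224 in parental and 172 to 362 in resistant cells. Endothelial markers summed to 35.2 to 164 and 10.5 to 886 in these states, and acinar and endocrine markers to at most 43.2 in any sample. Adgre1 and Ins1 were not analysed here.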

How the data were processed

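RNA-seq of 21 samples was used: 6 parental, 6 resistant, 3 P5 and 6 P12. The authors quantified reads with Salmon 0.12 against mm10, summed transcript estimates to genes and normalized them in DESeq2 1.18, per the submitters' processing notes. The deposited signal is a normalized count that is not whole and not per length. Its sum per sample was 2.86e+07 to 3.71e+07, estimated at 24.1 to 42.6 x 1e6 reads, and whole reads were not recovered. The strand setting, raw counts and which sequencer served which sample are not given. A further allele of the lines is not reported here.

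Here log2 of the value plus 1 was fitted in limma 3.58.1 (R 4.3.3, eBayes with trend) with 1 mean per state over all 21 samples, and 5 comparisons were read from that fit. Genes had to reach a value of 10 in 3 or more samples, and 15178 of 34478 did not reach it. The fit was tested on simulated data. Markers, sequences and shares were computed in Python 3.11.15 with pandas 2.3.3 and numpy 2.4.6, and figures drawn with matplotlib 3.10.9. Transcript lengths are those of GENCODE M21 principal transcripts.

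Samples are paired because states share a cell line, by the line numbers in the labels. Checked as the correlation of deviations from the state means, resistant and parental samples of the same line had a mean r of 0.241 (lowest 0.159), against -0.0462 between lines, and P12 and resistant samples 0.457 (lowest 0.337), against -0.0903. P12 and parental samples had 0.316 (lowest 0.00819), P5 and resistant 0.519 (lowest 0.495), P5 and parental 0.277 (lowest -0.0601). The fit with the line as a block is an alternative, beside other pseudocounts, filters, scaling, eBayes without a trend, the 2 compared states alone, no minimum fold and each line left out in turn.

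The 10 genes and the lists were chosen with earlier results of these data known. The text names all 10, from each list the called genes (at most the 4 with the largest change) or else the 2 with the smallest adjusted p, the 3 genes most like each member, and the 3 nearest protein-coding genes on each side where they bear on a member. Mtap, Os9, Rnf11 and Faf1 were picked from those neighbours after their values were seen.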

Additional observations from a re-analysis of the deposited data

Results flagged for a closer look

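Within each group of 6 samples of the 10 genes, 30 groups in all, the lowest and highest values were compared with the next one, and a gap over the critical share of the range on the log2 scale was noted, a size expected by chance in about 1 group in 20. It was found 2 times. Ccnd2 in P12 cells of line #7 was 1185, with a gap of 0.739 of the range. Cdkn2b in P12 cells of line #3 was 914.9, with a gap of 0.815. In resistant against parental cells, Ccnd2 in line #10 went against the other lines, with a log2 difference of 2.95. In P12 against parental cells its log2 difference of 3.73 was the largest, with 3 lines higher and 3 lower. These differences between lines were not tested.

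The limits are these. Each line was measured once per state, so the spread within a line is unknown, and P5 has 3 lines, 2 of which are described with another passage number. Levels are RNA of whole cultures, and protein, phosphorylation of RB and kinase activity were not analysed here. The value of Cdkn2a joins p16 and p19ARF. Resistant cells were measured only in the drug, so against parental cells they differ by the drug and by selection at once, and P5 and P12 are the states without it.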

How the results depend on the processing

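Of the log2 fold changes refitted under alternatives, 720 stayed alike, 13 were stronger and 17 changed sign. The count of members called in resistant against parental cells was 2 or 3, and over all tested genes it ran from 456 (without line #6) to 3016 (adjusted p below 0.05, no minimum fold). Leaving out each line in turn gave 2 to 3 members, with 3 without line #9.

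In P12 against resistant cells the count of members called was 0 in the limma fit used, 3 with the cell line as a replicate block, 3 at an adjusted p below 0.05 without a minimum fold, 1 (Ccnd1) with upper quartile scaling and 0 to 2 when a line was left out, with 2 (Cdkn2a and Cdkn2b) without line #9. In P12 against parental cells it was 1 at an adjusted p below 0.05. The block made no other member a call or lost a call, and raised the calls over all tested genes from 1023 to 2017 and from 412 to 872. Over all alternatives the calls among all tested genes ran from 93 (the 2 compared states alone) to 1201 (no minimum fold) in P12 against resistant cells, 4 to 127 in P12 against parental, 14 to 399 in P5 against resistant and 1 to 9 in P5 against parental cells.

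Changes of sign were found only for differences that were not called. With upper quartile scaling Cdk4 in P12 against resistant cells was 0.011 and Cdk6 in P5 against parental cells 0.058. With the block Cdk6 in P5 against parental cells was 0.12 and Cdkn2a -0.056. Leaving out a line gave log2 fold changes from -0.12 to 0.060 for Cdk4 and -0.019 to 0.20 for Rb1 in resistant against parental cells. In P12 against parental cells it gave -0.50 to 0.72 for Ccnd2, -0.13 to 0.0090 for Cdk6 and -0.028 to 0.36 for Cdkn2b. In P5 against parental cells it gave -1.05 to 0.69 for Ccnd2, -0.066 to 0.081 for Cdk6, -0.44 to 0.59 for Cdkn1b and -0.78 to 0.12 for Cdkn2b. Why these moved was not tested. Among the lists the block added 3 epithelial markers called lower and 1 fibroblast and 1 turnover gene (Cryab) higher in resistant against parental cells, and E2f6 lower. In P12 against resistant cells it added Cryab and 1 fibroblast marker lower and 1 endothelial marker higher, and no other call of a list.

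The calls of Ccnd1 and Cdkn2c in resistant against parental cells stood in each setting. Without a line, Ccnd1 ran from -2.94 to -2.20 and Cdkn2c from 1.70 to 2.06. Without a length, the mean share of Ccnd3 was 31.9% in resistant and 6.91% in parental cells, so its direction did not rest on the lengths, but 14 of 20 shares moved by more than their spread and the cyclin that led changed in 3 resistant (lines #4, #9 and #10), 2 P5 (#3 and #9) and 2 P12 samples (#6 and #10).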

Other observations

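Of 54 protein-coding genes nearest the 10 members, 38 were tested, and 2 were called in resistant against parental cells, beside 5.30% of all tested genes: Os9, near Cdk4, at 1.01 (limma adjusted p = 0.00308), and Rnf11, 184 kb from Cdkn2c, at 1.88 (limma adjusted p = 0.00306). Faf1, next to Cdkn2c, had a log2 fold change of 0.72 (limma adjusted p = 0.0108). The median over the 38 was 0.14, beside -0.0049 over all tested genes, and 0 of the 38 were called by limma in P12 against resistant cells, with 9 at an unadjusted p below 0.05, beside 19.8% of all tested genes. These shares are close to those of all tested genes and are no result about the neighbours.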
